A study of Mus musculus with 20 samples.

Results

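A set of 9 paralogous genes of the NLRP family was followed: Nlrp4a, Nlrp4b, Nlrp4c, Nlrp4e, Nlrp4f, Nlrp9a, Nlrp9b, Nlrp9c and Nlrp14. They were chosen by mouse gene symbol, and each of the 9 symbols matched 1 Ensembl gene among the 49585 genes of the count tables. In the 20 libraries together they drew 12916 counts, of which 9829 belonged to Nlrp4f, 1895 to Nlrp14, 698 to Nlrp4c and 398 to Nlrp4b. The other 5 genes were close to the limit of detection: Nlrp4a had 33 counts, Nlrp9b 28, Nlrp9a 20, Nlrp4e 13 and Nlrp9c 2.

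RNA-seq was done on whole ovaries of B6D2F1 mice that lacked Figla or Lhx8, genes for oocyte transcription factors, and on control ovaries, to find the genes that differ between them. Figla knockouts and controls were taken at embryonic day 18.5 (E18.5) and on the day of birth (P0), Lhx8 knockouts and controls at P0. The genotype field names heterozygous animals (Figla+/- and Lhx8+/-) as the controls, whereas the Lhx8 library names carry WT. Whether each sample is a different animal, a litter or a pool is not labelled, and the p-values therefore refer to sample spread that may be technical. The Figla libraries (14, with 5583392 to 13408022 counts) covered transcripts along their length, and the Lhx8 libraries (6, with 8297204 to 9978350 counts) read only their 3′ ends, so the knockouts were never compared in 1 model. In 6 of the 14 Figla and in all 6 Lhx8 libraries, the title and the library name named opposite groups, and the library name was followed.

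The targeted genes were read first, in CPM, the usual scaling of a gene's count to the total of its library. Figla stood at 32.5, 35.5 and 39.5 CPM in the P0 controls and 0.175, 0.647 and 0.295 CPM in the P0 knockouts. The E18.5 control replicates 1 to 4 had 23.9, 20.5, 3.94 and 27.2 CPM of Figla, against 0.722 to 1.56 CPM in the knockouts. Lhx8 stood at 90.0, 101 and 89.4 CPM in the Lhx8 controls and at 18.1, 31.0 and 23.0 CPM in the Lhx8 knockouts. The groups did not overlap in any of these comparisons, but E18.5 control replicate 3 stood apart. It was the shallowest library, and its Lhx8 level of 6.45 CPM lay just below the range of the E18.5 Figla knockouts, 6.52 to 44.7 CPM. Its title names a knockout, but so does that of E18.5 control replicate 4, and the titles of E18.5 knockout replicates 1 and 2 name controls. E18.5 control replicates 1 and 2 were nearly identical, as were knockout replicates 1 and 2. Each pair was summed and counted as 1 sample, which left 3 samples in every group.

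NLRP proteins are built from an N-terminal pyrin domain, a central nucleotide-binding NACHT domain and C-terminal leucine-rich repeats. Some members, such as NLRP3, assemble inflammasomes in immune cells, while another branch, which is expanded in rodents, is expressed mainly in oocytes and lasts as protein into the early embryo. NLRP5, also called MATER, is a core part of the subcortical maternal complex, a protein assembly under the egg membrane that is needed for the first cleavages. NLRP4F is known as a partner of that complex, and Nlrp14 is needed for female fertility. Nlrp9b is also known from the intestinal epithelium, where it senses viral RNA.

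Of the 9 genes, 8 lie on chromosome 7 of GRCm38 and Nlrp4f alone on chromosome 13 (65177111 to 65205716, minus strand). Nlrp9c, Nlrp4a and Nlrp9a form a cluster (chromosome 7, 26322473 to 26575615) with gaps of 31413 and 58881 bp, and the 1 other counted gene inside it had no counts. Nlrp4e lies 23612 bp from Nlrp5. Nlrp4c (6045161 to 6105150) and Nlrp4b (10687789 to 10730168) lie elsewhere on the chromosome, and Nlrp14 (107166990 to 107198102) is 80.6 Mb from the nearest of the others. The coding sequences of the 5 Nlrp4 genes were 77.1 to 93.9% identical, and those of the 3 Nlrp9 genes 82.3 to 87.4%. Between Nlrp4 and Nlrp9 the identity was 54.2 to 56.5%, and Nlrp14 shared 54.4 to 57.3% with each of the other 8.

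The pair most alike was Nlrp4c and Nlrp4e, with 93.9% identity over 2934 aligned bases. The longest stretch that both copies hold without a difference was 120 bases long, inside 1 exon of each, at chr7:6060715-6060834 in Nlrp4c and chr7:23301402-23301521 in Nlrp4e (GRCm38, plus strand, from the GENCODE transcripts). It is shown because a short read that falls inside it cannot be given to either gene.
Nlrp4c and Nlrp4e: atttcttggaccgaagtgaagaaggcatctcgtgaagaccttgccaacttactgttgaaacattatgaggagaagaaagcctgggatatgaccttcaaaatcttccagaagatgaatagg
Of all 50-base stretches of a gene's transcripts, the share also found in another gene was 36.7% for Nlrp4e and 10.7% for Nlrp4c. It was 7.79% for Nlrp9b, 6.07% for Nlrp9a, 5.95% for Nlrp4f, 2.61% for Nlrp9c and 2.56% for Nlrp4a. The genes that most often held the Nlrp4e stretches were Gm16443, Gm8486 and Gm8685, none of them a member, while for Nlrp4c it was Nlrp4e. Nlrp4f shared its stretches mainly with Nlrp4g. Nlrp14 and Nlrp4b shared none, so their counts are the least open to such exchange. The low count of Nlrp4e is the most uncertain for this reason, while the shares of the 3 Nlrp9 genes all lay below that of Nlrp4c. How many reads were lost or exchanged was not tested.

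The 250 bases before the RefSeq start were read for 8 of the 9 genes (10 windows, RefSeq on GRCm38.p6). FIGLA is a basic helix-loop-helix factor, a class that binds E-boxes, written CANNTG, and LHX8 is a LIM homeodomain factor, a class that binds motifs built around TAAT. The windows of 4 genes are shown because 3 of them share a run of letters around an E-box. The fourth, taken at the RefSeq start of the most abundant gene, does not hold it and may cover a different stretch, as described below. Capitals mark every CANNTG. The windows lie at chr13:65205717-65205966 (minus strand) for Nlrp4f and, on the plus strand, at chr7:6044911-6045160 for Nlrp4c, chr7:10687543-10687792 for Nlrp4b and chr7:26435364-26435613 for Nlrp4a, the latter a second RefSeq start inside the gene.
Nlrp4f: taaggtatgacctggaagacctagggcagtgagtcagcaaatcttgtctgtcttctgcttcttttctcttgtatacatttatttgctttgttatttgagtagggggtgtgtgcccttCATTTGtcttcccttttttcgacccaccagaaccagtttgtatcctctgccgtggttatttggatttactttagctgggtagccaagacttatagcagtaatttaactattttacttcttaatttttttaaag
Nlrp4c: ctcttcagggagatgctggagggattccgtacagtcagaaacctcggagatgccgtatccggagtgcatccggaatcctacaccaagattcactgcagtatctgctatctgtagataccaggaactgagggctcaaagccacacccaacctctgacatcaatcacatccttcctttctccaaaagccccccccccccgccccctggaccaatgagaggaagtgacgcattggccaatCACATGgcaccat
Nlrp4b: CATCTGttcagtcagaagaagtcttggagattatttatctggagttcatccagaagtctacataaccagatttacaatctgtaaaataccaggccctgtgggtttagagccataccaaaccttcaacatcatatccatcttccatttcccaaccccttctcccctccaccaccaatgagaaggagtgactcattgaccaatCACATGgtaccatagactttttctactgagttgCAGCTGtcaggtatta
Nlrp4a: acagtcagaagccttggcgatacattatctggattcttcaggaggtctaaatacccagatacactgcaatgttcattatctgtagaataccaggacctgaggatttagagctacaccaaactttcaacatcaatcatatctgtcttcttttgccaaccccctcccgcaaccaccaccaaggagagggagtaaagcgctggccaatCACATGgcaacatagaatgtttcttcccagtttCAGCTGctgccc
The run shared without a difference by Nlrp4c, Nlrp4b and Nlrp4a was 12 bases long, ccaatCACATGg. Its E-box began 13, 49 and 45 bases before the start. It was picked after the windows were seen, and it occurs in 6 of all 32851 promoter windows on either strand (0.0183%), which are the windows of these 3 genes, counted with both starts of Nlrp4b, and those of Dcxr and Oscp1. The Nlrp4b and Nlrp4c windows were 74.3% identical, whereas the Nlrp4f window was 44.7 to 52.3% identical to those of the other Nlrp4 genes. Near its beginning the Nlrp4f window holds the letters cctagggcagt, which also end the window of the second Nlrp4b start (chr7:10687571-10687820). In Nlrp4b these letters lie past the first start, while the shared run lies before it. The Nlrp4f window may thus begin past the corresponding stretch, so it does not tell whether Nlrp4f lacks the run. This was not tested. Nlrp4f held 1 E-box, CATTTG, 133 bases before the start, and Nlrp4e held none.

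The E-box letters are common. CANNTG was found in 66.2% of all windows, the narrower CAGGTG in 17.2% and CAGCTG in 13% (both strands, each a case of CANNTG). Nlrp9a and Nlrp9c, whose windows were 96.1% identical, both held the letters CAGGTG. The letters TAATTA were found only in the Nlrp9a window among the members and in 4.84% of all windows, and TAATTG in those of Nlrp9a and Nlrp9b and in 7.17%. The letters TATAAA were found in the Nlrp9b window and in 12.4% of all. That Nlrp9b window (chr7:20007773-20008022) lies inside the gene as counted (19991465 to 20073306), so its letters do not lie before the start of the counted gene. A match describes the letters and is no evidence of binding.

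Levels were compared between genes as RPKM, reads per kilobase of exon on the CPM scale, in the Figla controls only. At P0, Nlrp4f was highest, at 57.4 ± 23.3 RPKM (SD, n = 3), beside 53.9 ± 46.9 RPKM for Nlrp5. Nlrp14 followed at 11.2 ± 10.2 RPKM, Nlrp4c at 2.87 ± 1.38 and Nlrp4b at 0.388 ± 0.262. The lowest Nlrp4f sample, at 33.9 RPKM, lay above the highest Nlrp14 sample, at 22.8 RPKM. Nlrp14 (3.60 to 22.8 RPKM) and Nlrp4c (1.37 to 4.10 RPKM) overlapped, while Nlrp4c and Nlrp4b (0.106 to 0.624 RPKM) did not. Below them, Nlrp4a stood at 0.119 ± 0.0803 RPKM, Nlrp9b at 0.0990 ± 0.0329, Nlrp4e at 0.0882 ± 0.0844 and Nlrp9a at 0.0299 ± 0.0518, with overlapping samples. Nlrp9c had 0 counts in each of the 6 P0 libraries of the Figla set, which allows up to 3 counts a library, by counting error alone.

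**Figure D1:**
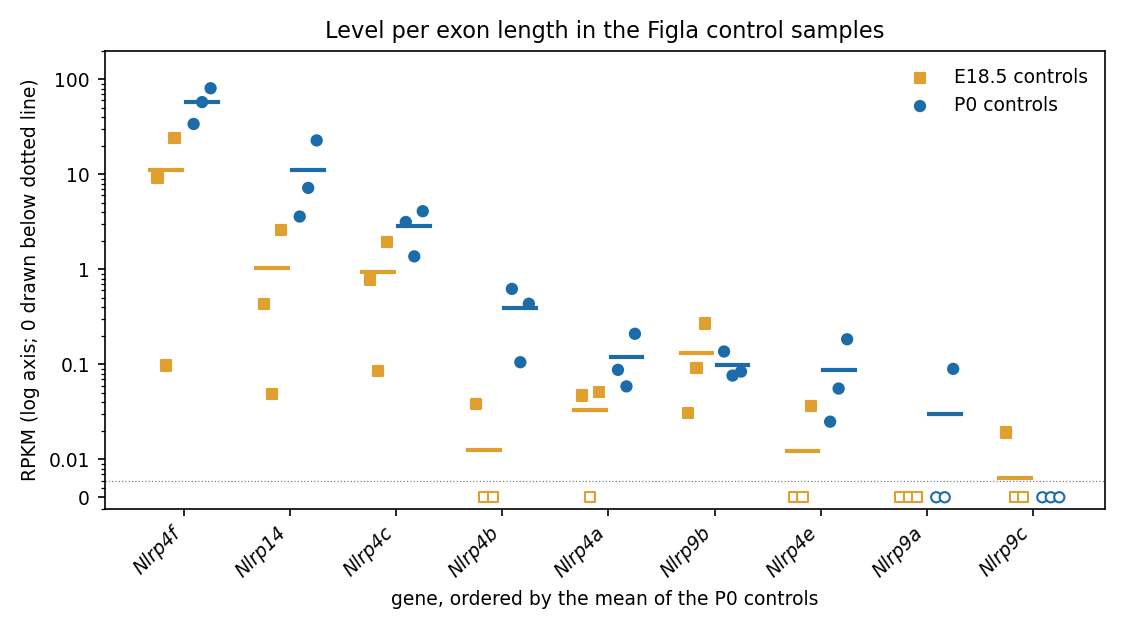
RPKM of each gene on a log axis in the 3 E18.5 control samples (squares) and the 3 P0 control samples (circles) of the Figla set, genes ordered by the P0 mean, with bars at the mean and open symbols for samples with no counts. Nlrp4f has the highest mean at both ages, and 1 E18.5 sample lies far below the other 2 for Nlrp4f, Nlrp14 and Nlrp4c.

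At E18.5 Nlrp4f again had the highest mean, but for Nlrp4f, Nlrp14 and Nlrp4c the SD between controls was as large as the mean or larger. Nlrp4f stood at 11.1 ± 12.2 RPKM, Nlrp14 at 1.04 ± 1.39, Nlrp4c at 0.931 ± 0.936 and Nlrp9b at 0.131 ± 0.124 RPKM. Nlrp4c lay above Nlrp14 in 2 of the 3 control samples, and Nlrp14 had the higher mean through control replicate 4 alone. Nlrp4a and Nlrp4b had 6 and 3 counts in all controls, Nlrp9c 2, Nlrp4e 1 and Nlrp9a 0. The range of Nlrp9b at E18.5, 0.0307 to 0.269 RPKM, enclosed its range at P0, 0.0764 to 0.137 RPKM.

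In Figla knockout ovaries at P0, the transcripts of Nlrp4f, Nlrp14 and Nlrp4c were nearly gone. Nlrp4f, the abundant copy, had 1410, 2145 and 3634 counts in the 3 controls and 6, 5 and 4 in the 3 knockouts. Nlrp14 had 150, 269 and 1030 counts in the controls and 0, 3 and 1 in the knockouts. Nlrp4c, the second copy by level, had 149, 58 and 210 counts in the controls and 2, 10 and 8 in the knockouts. All 3 genes were lower in every knockout than in every control, and control replicate 3 was the highest for each. On the log2 scale Nlrp4f fell by 8.78 (SE 0.42, adjusted p = 6.36e-07), a ratio of scaled counts of 456 (95% counting interval 277 to 816). Nlrp14 fell by 8.25 (SE 0.96, adjusted p = 0.000291), a ratio of 345 (134 to 1270), and Nlrp4c fell by 4.25 (SE 0.52, adjusted p = 0.000385), a ratio of 19.9 (12.7 to 32.8). In whole ovaries, fewer cells of a type and less RNA per cell cannot be told apart.

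These 3 genes were the members that the filter on low counts kept in this comparison, and it kept them through their control levels. A gene was called at an adjusted p under 0.05. Of the 17321 genes tested, 10.9% were called lower and 5.12% higher, and the 3 members tested were called lower. The Nlrp14 value rests in part on single libraries: without control replicate 3, whose title names a knockout, it fell by 7.18 (adjusted p = 2.68e-05), and without knockout replicate 2 it fell by 9.39 (adjusted p = 0.00309). With only the libraries on whose group both labels agree, Nlrp4f fell by 8.62, Nlrp14 fell by 6.67 and Nlrp4c fell by 3.49, and all 3 calls held. Grouped by title, 0 of the 3 were called.

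The other 6 members did not pass the filter at P0, and Nlrp4b, Nlrp4e and Nlrp9a were seen in controls alone. Nlrp4b had 33, 5 and 25 counts in the controls and 0 in each knockout, at least 20.0-fold higher in controls against a floor of 3 counts over the knockout group. Nlrp4e had 1, 2 and 8 counts against 0, at least 3.49-fold, and Nlrp9a had 0, 0 and 4 against 0, at least 1.27-fold. Nlrp4a had 5, 3 and 13 counts in the controls and 0, 2 and 0 in the knockouts, a ratio of 10.0 (2.44 to 88.0). Nlrp9b had 6, 3 and 4 counts in the controls and 1, 0 and 0 in the knockouts, a ratio of 12.4 (1.86 to 526). Without the filter, edgeR called 6 of the 8 members with a count lower, against 7.38% of 33637 genes: the 3 above and Nlrp4b (adjusted p = 5.06e-12), Nlrp4a (0.00963) and Nlrp4e (0.0199), while Nlrp9b (0.0506) and Nlrp9a (0.304) missed the threshold. Nlrp4b was also called by DESeq2, and with the filter in the fits without control replicate 2 or without any 1 knockout. Every knockout lay below every control for 7 of the 8 members with a count, all but Nlrp9a, and for 12.9% of all genes with a count.

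**Figure D2:**
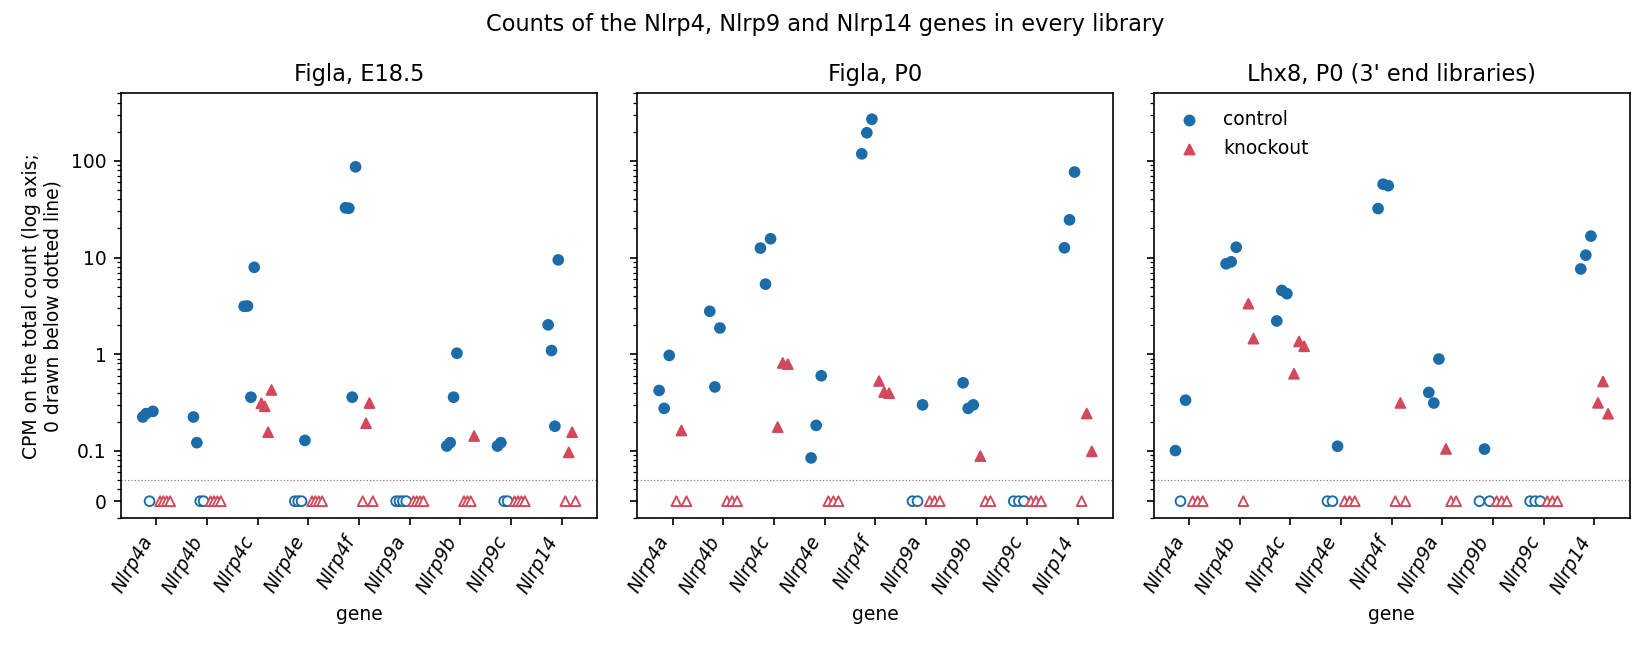
CPM of the 9 genes in every library on a log axis, in the 3 comparisons, with controls as blue circles and knockouts as red triangles, and open symbols for libraries with no counts. At P0 the Nlrp4f controls of the Figla set sit between 119 and 271 CPM and the knockouts between 0.394 and 0.526 CPM. At E18.5, 1 control library lies among or beside the knockouts.

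At E18.5 the same genes were low or absent in the Figla knockouts, but the controls disagreed among themselves. Nlrp4f had 293, 268, 2 and 681 counts in control replicates 1 to 4 and 0, 2, 2 and 0 in the knockouts. Nlrp14 had 18, 9, 1 and 74 counts in the controls and 0, 1, 1 and 0 in the knockouts, and Nlrp4c had 28, 26, 2 and 62 against 3, 3, 1 and 3. Control replicate 3 was thus close to the knockouts for each gene. With the paired libraries summed, its 0.344 CPM of Nlrp4f (on scaled library sizes) lay just above the highest knockout, 0.315 CPM. For Nlrp4c its 0.344 CPM lay below the highest knockout, 0.418 CPM. Summed over each group, the ratios were 334 (130 to 1230) for Nlrp4f, 54.7 (14.8 to 458) for Nlrp14 and 12.7 (6.65 to 27.1) for Nlrp4c.

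None of the 9 genes passed the filter at E18.5 with all samples, so none was tested. In that fit 1 of 16131 genes was called lower (0.0062%) and 607 had an unadjusted p under 0.05, and DESeq2 called 96 genes lower. Without the filter, 3 of the 8 members with a count were called, against 0.475% of 34979 genes. Nlrp4f fell by 8.17 (SE 1.06, adjusted p = 0.000111), Nlrp14 fell by 5.62 (SE 1.06, adjusted p = 0.00644) and Nlrp4c fell by 3.58 (SE 0.74, adjusted p = 0.0146) in that fit. Without control replicate 3 but with the filter, Nlrp4f fell by 8.78 (SE 0.71, adjusted p = 0.00891), while Nlrp14, at -6.19 (adjusted p = 0.12), and Nlrp4c, at -4.10 (adjusted p = 0.0515), missed the threshold, against 0.531% of genes called lower. With the filter and without both samples numbered 3, edgeR called none of these genes. Nlrp4f stood at -9.50 (adjusted p = 0.0519), Nlrp14 at -6.86 (adjusted p = 0.331) and Nlrp4c at -3.945 (adjusted p = 0.213). Without the filter and without control replicate 4, the highest control, Nlrp4f fell by 6.96 and Nlrp14 fell by 3.76 (adjusted p = 0.0496), and Nlrp4c, at -2.60, missed the threshold (adjusted p = 0.0506). Every knockout sample lay below every control sample for Nlrp4f and Nlrp14, 2 of 8 members, which rests on 2 and 1 counts in control replicate 3, and for 3.57% of genes with a count.

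The remaining members gave few counts at E18.5. Nlrp9b had 1, 1, 2 and 8 counts in the controls and 0, 0, 0 and 1 in the knockouts, a ratio of 12.9 (1.91 to 551). Nlrp4a had 2, 2, 0 and 2 counts against 0, at least 2.15-fold higher in controls. For Nlrp4b, Nlrp4e, Nlrp9a and Nlrp9c both groups were at or under the floor of 3 counts.

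In Lhx8 knockout ovaries at P0, Nlrp4f and Nlrp14 were nearly absent too, while part of the Nlrp4b and Nlrp4c counts remained. Nlrp4f had 321, 554 and 499 counts in the controls and 0, 3 and 0 in the knockouts. Nlrp14 had 76, 102 and 150 counts in the controls and 3, 5 and 2 in the knockouts. Nlrp4b had 86, 87 and 115 counts in the controls and 0, 32 and 12 in the knockouts, and Nlrp4c had 22, 44 and 38 against 6, 13 and 10. No knockout reached a control for any of the 4, and knockout replicate 2 was the highest knockout for each of them. It was also the highest for Nlrp5, with 188 counts against 2 and 5 in the other knockouts.

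Nlrp4f fell by 8.69 (SE 0.53, adjusted p = 1.58e-05), a ratio of 461 (157 to 2240). Nlrp14 fell by 5.01 (SE 0.46, adjusted p = 0.000125), a ratio of 33.0 (17.7 to 69.5). Nlrp4b fell by 2.71 (SE 0.71, adjusted p = 0.039), a ratio of 6.59 (4.78 to 9.27), and Nlrp4c fell by 1.83 (SE 0.47, adjusted p = 0.0364), a ratio of 3.61 (2.37 to 5.65). All 4 members that passed the filter were called lower, against 7.29% of the 15274 genes tested, and none higher, against 3.06%. The filter kept these 4 through their control levels, so the share of those tested is no result. Without the filter 4 of the 8 members with a count were called lower, the same 4, against 6.38% of 26816 genes. The counting intervals of Nlrp4b and Nlrp4c lay below that of Nlrp4f, and the difference between the genes was not tested over samples.

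The Nlrp4f and Nlrp14 calls held without any 1 library, but those of Nlrp4b and Nlrp4c did not. Without control replicate 2, Nlrp4b, at -2.79 (adjusted p = 0.107), and Nlrp4c, at -1.64 (adjusted p = 0.147), both missed the threshold, as they did without control replicate 3 (adjusted p = 0.121 and 0.108) and without knockout replicate 3 (0.0766 and 0.0594). Nlrp4b was also lost without control replicate 1 (adjusted p = 0.0992) and by DESeq2 (adjusted p = 0.189), and Nlrp4c without knockout replicate 1 (0.077) or 2 (0.0531). Without knockout replicate 2, Nlrp4b fell by 3.91, and without knockout replicate 1 it fell by 2.09. For Nlrp4f the value was -8.09 without knockout replicate 1 and -11.84 without knockout replicate 2, the latter with 0 counts left in the knockouts and so no bound.

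Of the 5 remaining genes in the Lhx8 set, Nlrp9a was the best counted, with 4, 3 and 8 counts in the controls and 1, 0 and 0 in the knockouts, a ratio of 15.1 (2.32 to 636). Nlrp4a had 1, 0 and 3 counts against 0, at least 1.34-fold higher in controls. Nlrp4e and Nlrp9b had 1 count each, both in controls, and Nlrp9c had 0 in all 6 libraries. Every knockout lay below every control for 5 of the 8 members with a count, against 12.3% of genes with a count. Nlrp9a was the fifth beside the 4 that were called.

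**Figure D3:**
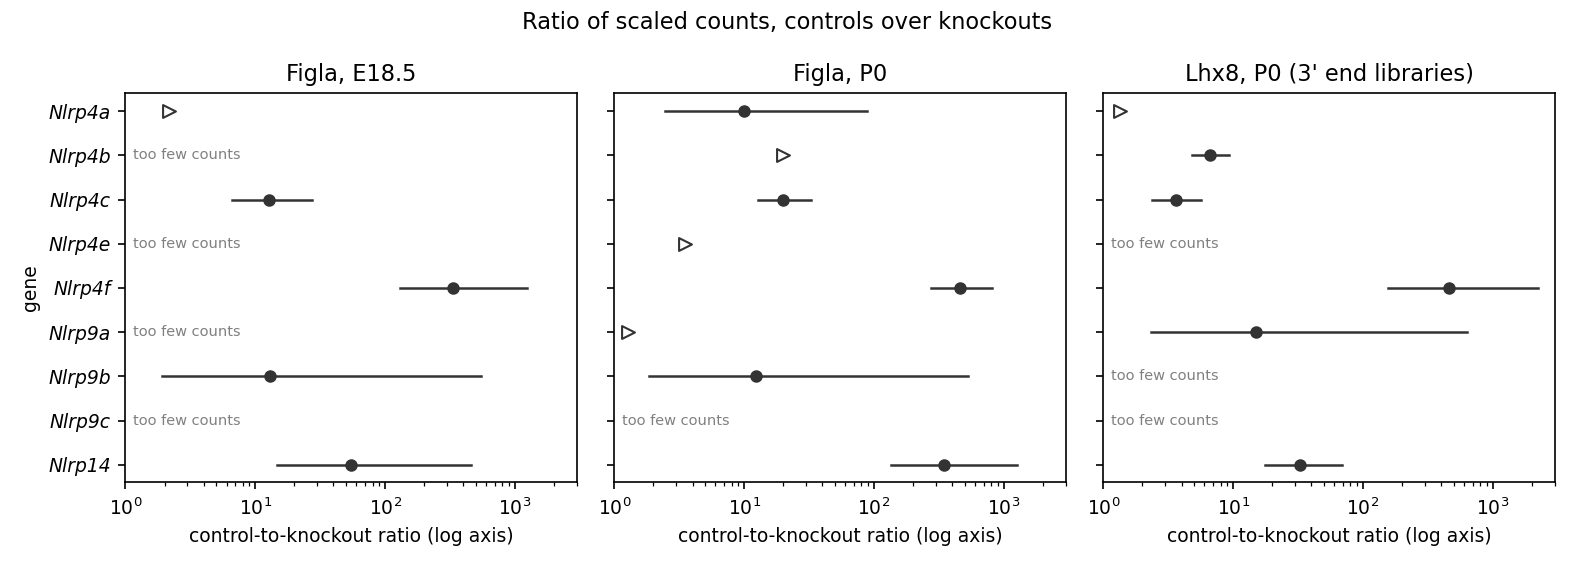
Ratio of scaled counts, controls over knockouts, for each gene on a log axis in the 3 comparisons. Points have 95% counting intervals, open arrows are lower bounds where the knockouts had no counts, and genes at or under 3 counts in both groups have no value. The ratio of Nlrp4f is 334, 456 and 461 in the 3 panels, and those of Nlrp4b and Nlrp4c in the Lhx8 set are 6.59 and 3.61.

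Side by side, the ratio of Nlrp4f was alike in the Figla and Lhx8 knockouts at P0 (456 and 461), while that of Nlrp14 was 345 and 33.0 and that of Nlrp4c 19.9 and 3.61. Nlrp4b was at least 20.0 in the Figla set and 6.59 in the Lhx8 set. The sets differ in library kit, and these differences were not tested.

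Nlrp4f made up most of the Nlrp4 counts in every control except E18.5 control replicate 3, where 2 of 4 counts were its own. Its share was 88.2, 96.9 and 93.4% in the Figla P0 controls, 90.2 and 91.3% in the other E18.5 control samples, and 74.7, 80.9 and 76.1% in the Lhx8 controls. The share of Nlrp4c was 9.32, 2.62 and 5.40% in the Figla P0 controls and 5.12, 6.42 and 5.79% in the Lhx8 controls. That of Nlrp4b was 2.07, 0.226 and 0.643% in the former and 20.0, 12.7 and 17.5% in the latter, with no overlap between the sets. Whether this follows the part of the transcript that each kit reads was not tested.

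**Figure D4:**
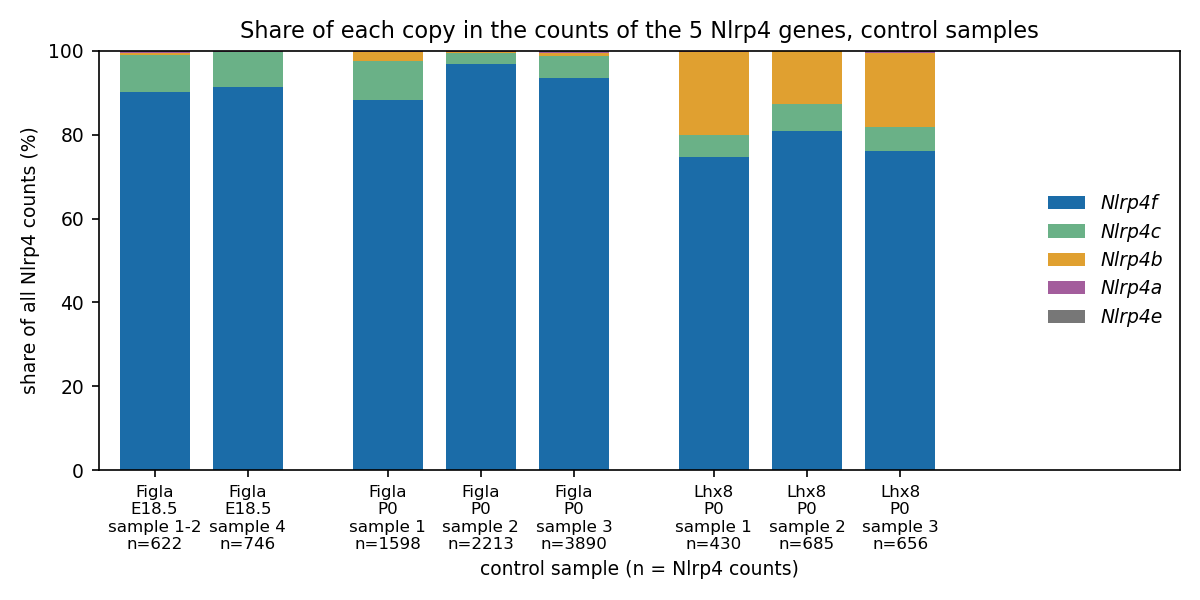
Share of each copy in the counts of the 5 Nlrp4 genes in the control samples, stacked to 100%, with the number of Nlrp4 counts under each bar. E18.5 control replicate 3 is left out because it had 4 Nlrp4 counts. Nlrp4f takes 74.7 to 96.9% of each bar, and Nlrp4b is wider in the Lhx8 set.

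Few Nlrp4 counts were left in the knockouts, and their division was not tested against that of the controls. In the Figla P0 knockouts Nlrp4c had 2 of 8, 10 of 17 and 8 of 12 Nlrp4 counts, and Nlrp4f had 6, 5 and 4. In the first of these the share of Nlrp4f had an exact 95% interval of 34.9 to 96.8%, which covers 2 of the 3 shares in the Figla P0 controls. In the Lhx8 knockouts Nlrp4b had 0 of 6, 32 of 48 and 12 of 22, Nlrp4c had the other 6 in the first and 13 and 10 in the rest, and Nlrp4f had 3 in 1 library. The intervals of the Nlrp4f share there were 0 to 45.9%, 1.31 to 17.2% and 0 to 15.4%, below the 74.7 to 80.9% of the Lhx8 controls. The 5 copies were also summed into 1 feature, which keeps reads exchanged between them but not reads exchanged with other genes. The Nlrp4 sum fell by 7.60 (SE 0.36) in the Figla P0 knockouts and fell by 4.54 (SE 0.48) in the Lhx8 knockouts. The sum did not pass the filter at E18.5, where its value without the filter was -6.61 (SE 0.87). The Nlrp9 sum passed in no comparison. Its values were -3.60 (SE 1.09) for Figla at P0, -3.52 (SE 1.24) at E18.5 and -3.63 (SE 1.54) for Lhx8.

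Between E18.5 and P0 the control levels of the abundant members were higher at birth, though none was called after adjustment over all genes tested. The unadjusted p of the quasi-likelihood test was 0.0129 for Nlrp4f, 0.00152 for Nlrp14 and 0.0299 for Nlrp4c. In 1 model of all 12 Figla samples the P0-to-E18.5 log2 difference was 2.36 (SE 0.82, adjusted p = 0.12) for Nlrp4f, 3.44 (SE 0.86, adjusted p = 0.0623) for Nlrp14 and 1.604 (SE 0.66, adjusted p = 0.171) for Nlrp4c. For Nlrp4f and Nlrp14 the highest E18.5 control had 87.0 and 9.46 CPM and the lowest P0 control 119 and 12.6 CPM. The share of all genes with such a gap between the ages was not counted, so the gap is no result about these genes. For Nlrp4c the ranges overlapped. By edgeR 0% of 18379 genes were called higher and 0% lower, with 4254 at an unadjusted p under 0.05, while DESeq2 called 1034 higher and 517 lower, none of them a member. Without E18.5 control replicate 4, Nlrp14 rose by 5.21 (adjusted p = 0.0222), and without P0 control replicate 3 its difference was 2.39 (adjusted p = 0.277).

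The Figla effect was not shown to differ between the ages. The P0 effect minus the E18.5 effect was -0.53 (SE 3.67) for Nlrp4f, -2.56 (SE 3.68) for Nlrp14 and -0.61 (SE 1.33) for Nlrp4c, with adjusted p of 0.991, 0.955 and 0.967. By edgeR 0% of 18379 genes were called lower, 977 had an unadjusted p under 0.05, and DESeq2 called 3 genes in all. The SE here was calculated back from the test statistic and moved with single samples. For Nlrp4f it was 3.67 with all samples and 0.375 without E18.5 control replicate 3. It therefore does not tell how large a difference between the ages could have been detected, and this was not tested.

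Transcripts of general germ cell genes were still present in ovaries that had lost most of the Nlrp4f and Nlrp14 transcripts. The summed CPM of 10 germ cell markers, among them Ddx4, Dazl and Mael, was 1630 to 2090 in the P0 Figla controls and 1550 to 1590 in the knockouts. It was 1800 to 2250 and 1570 to 2230 in the Lhx8 set and 1300 to 1880 and 1160 to 1190 at E18.5. Of the 10, 4 were called lower in the Figla P0 knockouts (median log2 fold change -0.27, against 0.02 over all genes), 2 in the Lhx8 knockouts and 0 at E18.5, where edgeR called 1 gene in all. Sycp3 and Ddx4 were called in both sets at P0, at -0.88 and -0.84 for Figla and at -0.96 and -0.94 for Lhx8. Per 1000 CPM of germ cell markers, Nlrp4f stood at 57.9, 125 and 136 CPM in the P0 Figla controls and at 0.352, 0.251 and 0.251 CPM in the knockouts. In the Lhx8 set it stood at 16.2, 26.0 and 31.1 CPM in the controls and at 0, 0.137 and 0 in the knockouts.

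**Figure D5:**
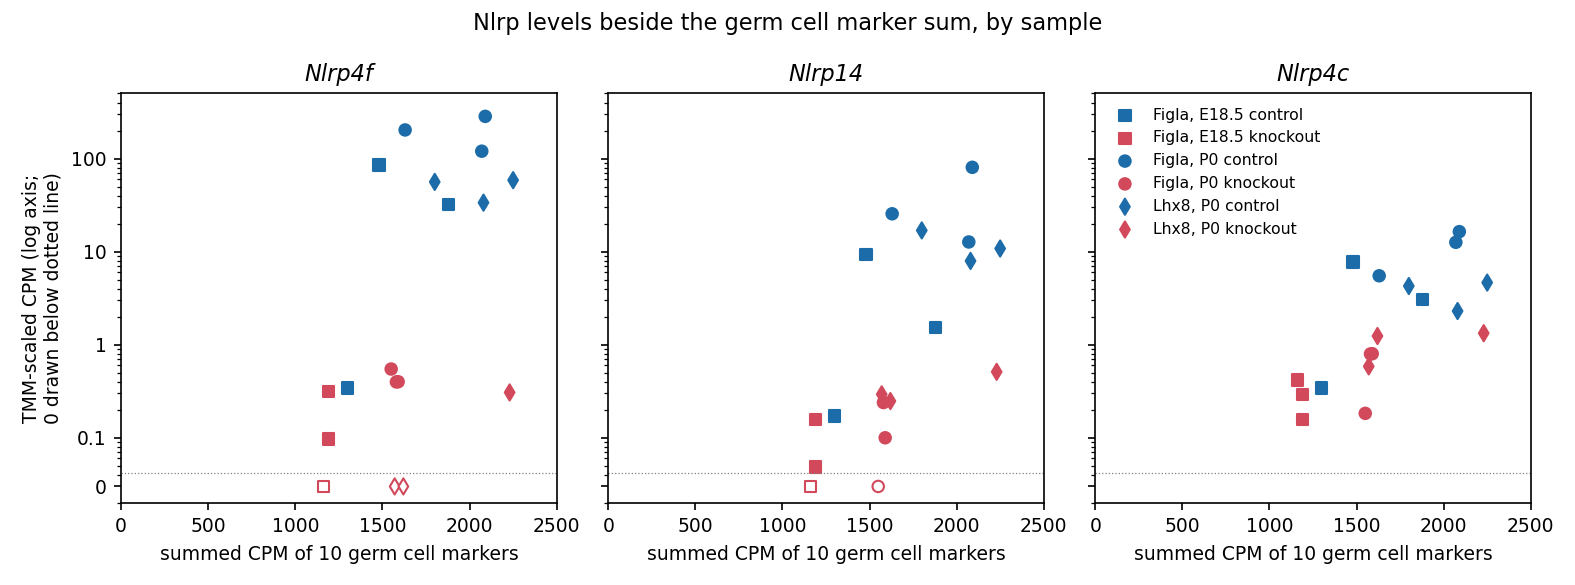
Scaled CPM of Nlrp4f, Nlrp14 and Nlrp4c (log axis) against the summed CPM of 10 germ cell markers (linear axis from 0), 1 point a sample, with shapes for the set, blue for controls and red for knockouts, and open symbols for 0. The Figla P0 knockouts have 1550 to 1590 CPM of germ cell markers but under 1 CPM of each Nlrp gene, and 1 E18.5 control lies among the knockouts.

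The summed levels of macrophage, granulosa and stromal markers were higher in the P0 knockouts, with an overlap for macrophages in the Lhx8 set, and their part in the results was not tested. Summed macrophage markers were 43.2 to 45.8 CPM in the P0 Figla controls and 62.5 to 64.6 CPM in the knockouts, with 2 of 6 called higher. Granulosa markers were 1360 to 1880 and 2280 to 2410 CPM, with 2 of 8 called higher, and stromal markers 1700 to 2090 and 2490 to 2810 CPM, with 4 of 6 called higher. In the Lhx8 set the sums were 62.8 to 78.4 against 77.9 to 116 CPM for macrophages, 825 to 920 against 1070 to 1220 CPM for granulosa cells and 2140 to 2560 against 3190 to 3600 CPM for stroma, with 0 of 6, 1 of 7 and 2 of 6 called higher. For Figla at P0, endothelial markers were 232 to 333 CPM in controls and 402 to 443 CPM in knockouts, with 3 of 4 called higher. Steroidogenic markers were 84.5 to 97.4 and 115 to 141 CPM, with 0 of 4 called, and surface epithelium markers overlapped. In the Lhx8 set only the steroidogenic sums of these 3 lists did not overlap. Erythroid markers had a median log2 fold change of 0.09 for Figla at P0, with 0 of 5 called. It was 0.92 for Lhx8 and 1.16 for Figla at E18.5, also with 0 called. The intestine markers, included because Nlrp9b is known from that epithelium, were 76.0 to 83.1 CPM in the P0 Figla controls and 23.8 to 40.8 CPM in the knockouts, of which Vil1, at -5.86 (SE 0.30, adjusted p = 1.05e-06), was the 1 gene called. Vil1 was also lower in the Lhx8 knockouts, at -2.50 (SE 0.41, adjusted p = 0.00423).

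Among other NLRP genes, the oocyte gene Nlrp5 fell with the members. Nlrp5 had 1173, 1721 and 6663 counts in the P0 Figla controls and 1, 6 and 2 in the knockouts, and fell by 9.87 (SE 0.87, adjusted p = 4.15e-05). In the Lhx8 knockouts it fell by 5.45 (SE 0.98, adjusted p = 0.00665). Nlrp4g, which shares sequence with Nlrp4f, fell by 6.56 (SE 0.72, adjusted p = 0.000188) in the Figla P0 knockouts and was at 4 counts in all Lhx8 controls. Of 11 genes listed here, 10 Nlrp genes and Nlrx1, 4 were tested at P0 for Figla and 2 for Lhx8, and these 2 and 1 calls were the only ones. Nlrx1, a mitochondrial NLR protein without a pyrin domain, stood at 0.45 (adjusted p = 0.0733) and 0.40 (adjusted p = 0.283).

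Among the NLR genes of immunity and their partners, Nod2 and Txnip were the genes called at P0. Of 10 other NLR genes, 6 were tested at P0 for Figla, and 1 fell: Nod2, a sensor of bacterial cell wall fragments, by 2.06 (SE 0.36, adjusted p = 0.00367). In the Lhx8 set 2 were tested and 0 called. Of 11 inflammasome partners, 8 and 7 were tested and 1 in each set was called, Txnip, a redox regulator that binds NLRP3, which rose by 0.50 (SE 0.14, adjusted p = 0.0371) for Figla and by 1.40 (SE 0.24, adjusted p = 0.00482) for Lhx8. The median over the partners was 0.33 and 0.20, against 0.02 and 0.05 over all genes. Beside 10.9% of all genes called lower and 5.12% higher for Figla, and 7.29% and 3.06% for Lhx8, 1 call in lists this short is no result about the lists.

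Genes of the subcortical maternal complex and its partners fell alongside. Of 7 listed, 5 were tested in each set, and 5 were called lower for Figla and 4 for Lhx8, with medians of -3.40 and -4.51. Padi6, a peptidyl arginine deiminase of the egg lattices, fell by 7.58 (SE 0.65, adjusted p = 3.55e-05) for Figla and fell by 7.54 (SE 0.24, adjusted p = 1.15e-07). Ooep, a core member, fell by 3.40 (SE 0.51, adjusted p = 0.00127) and fell by 4.51 (SE 0.43, adjusted p = 0.000154). Tle6, another core member, fell by 1.41 for Figla and fell by 1.22 for Lhx8. Zbed3 fell by 1.51 for Figla and stood at -0.83 (adjusted p = 0.0832) for Lhx8. The zona pellucida genes, 3 of 3 in both sets, and the oocyte transcription factors, 7 of 7 for Figla and 3 of 6 for Lhx8, were also called lower. The 7 factors called for Figla include Figla itself, the targeted gene, and the 3 called for Lhx8 were Lhx8 itself, Nobox and Sohlh2. At E18.5 and between the ages in controls, edgeR called 1 gene and 0 genes in all, so the lack of calls in these lists there says nothing about them.

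The genes whose levels were most like those of the members over the 12 Figla samples were Cspg5, Oas1e, Cobll1, Lsm14b and Arhgef16. Their mean Pearson r with the 6 members that had enough counts was 0.902, 0.902, 0.900, 0.900 and 0.899 on log2 CPM. Over the 6 Lhx8 samples the means were 0.748, 0.913, 0.887, 0.596 and 0.889. The samples divide into knockouts and controls and share libraries and depth, so these values mainly describe that division. Among the members themselves, r over the 12 samples was 0.967 between Nlrp14 and Nlrp4f, 0.952 between Nlrp4c and Nlrp4f, and 0.701 between Nlrp4f and Nlrp9b.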

How the data were processed

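Gene counts of 20 mouse ovary libraries were used as deposited: raw counts of reads per gene, 1 table a library. Per the file headers, the authors counted with featureCounts 1.6.0, strand ignored and no option for multiply mapped reads. The submitters' processing notes list cutadapt, HISAT2 and the build GRCm38.p5, with tool versions not given in the sources used here. The read length is not given there either. A read that fits several paralogs may be missing or credited to the wrong gene, and reads of both strands were added together.

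Groups follow the library name. Chi-square statistics between replicates, on genes with 50 counts or more, singled out the 2 summed pairs, which differed by 1.12 and 1.32 per degree of freedom and the 22 other pairs by 6.62 to 62.3. edgeR 4.0.16 in R 4.3.3 was used with filterByExpr (minimum count 10, minimum total 15), TMM scaling, the quasi-likelihood test and Benjamini-Hochberg adjustment over all genes tested, at 0.05. The script was tested on simulated data. Each knockout had its own model, and 1 model of all Figla samples gave the comparisons of age. The SE of an edgeR value is its absolute log2 difference divided by the square root of the F statistic of the test. Sums of paralogs were refitted with no p. Ratios are of counts on scaled library sizes, with exact 95% intervals. Intervals and floors (3 counts over a group) cover counting error only, since no molecular identifiers are recorded.

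Alternatives were DESeq2 1.42.0, RLE scaling, no filter, each sample left out, grouping by title or by agreeing labels, and a replicate block. Coding identity came from GENCODE transcripts, aligned with Biopython, in place of the protein alignment first planned. Promoters came from RefSeq (GRCm38.p6). Other genes were named where past the threshold, at most 4 a list and comparison, and the likeness rule took the 5 highest mean correlations. The members and lists were chosen with earlier results of these data known.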

Additional observations from a re-analysis of the deposited data

How the results depend on the processing

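Single-copy counts are limited by shared sequence and by depth: 5 of the 9 genes had 33 or fewer counts in all libraries, so they passed the filter in no comparison, and without it Nlrp4a and Nlrp4e were called at P0 for Figla. In the Figla E18.5 comparison 0 members were called, against 3 without the filter on low counts, 3 by DESeq2, 1 in 1 model of all Figla samples and 2 with only libraries with agreeing labels, where 1 control sample was assumed to vary like the knockouts. Leaving out 1 sample gave 0 to 1, and leaving out both samples numbered 3 gave 0. At P0, 3 members were called for Figla, against 6 without the filter, 0 grouped by title, and 3 to 4 with 1 sample left out. For Lhx8, 4 were called, and 2 to 3 with 1 sample left out. In controls P0 against E18.5, 0 were called, against 4 without the filter, 2 with every library kept separate and 0 to 1 with 1 sample left out. For the difference of the Figla effects, 0 were called under all settings run. RLE scaling changed no count of members.

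Grouped by title, the E18.5 values without the filter turned to 0.38 for Nlrp4c, 0.39 for Nlrp4f and 1.61 for Nlrp14, and the P0 value of Nlrp14 to 1.08. Those groups mix libraries that the names call control and knockout. Grouping by title was not run for Lhx8, where it exchanges the groups. The difference of the Figla effects for Nlrp4f, -0.53, was 0.03 without E18.5 control replicate 3 and 0.12 without E18.5 knockout replicate 3, and -1.72 to 0.12 with 1 sample left out.

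The numbers of the Lhx8 libraries did not pair the samples (r of same-numbered deviations -0.154, 0.047 and 0.038). With the replicate block, 3 of the 4 members were called. Nlrp4b stood at -3.02 (adjusted p = 0.0598), Nlrp4c at -1.83, Nlrp4f at -8.69 and Nlrp14 at -4.95.

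Over all genes, 1 was called lower at E18.5, against 166 without the filter, 96 by DESeq2, 53 in 1 model, 34 with every library kept separate, 564 with agreeing labels, 695 by title, 18 without both samples numbered 3 and 0 to 89 with 1 sample left out. At P0, 1880 were called lower and 887 higher for Figla, against 1098 and 265 in 1 model, 0 and 0 by title, 2481 and 1379 without the filter, and 1150 to 1840 and 273 to 1042 with 1 sample left out. For Lhx8 1114 were lower and 468 higher, against 1712 and 970 without the filter, 714 and 217 with the block, and 531 to 1021 and 99 to 469 with 1 sample left out. In controls P0 against E18.5, 0 became 829 higher and 423 lower without the filter, 864 and 626 with every library kept separate and up to 439 and 225 with 1 sample left out.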

Other observations

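Between the highest and the lowest Figla control at P0, Nlrp4f differed 2.37-fold, Nlrp14 6.33-fold, Nlrp4c 2.99-fold and Nlrp5 5.23-fold. In the Lhx8 controls the same spans were 1.75-fold, 2.12-fold, 2.02-fold and 1.43-fold. The sum of 10 germ cell markers spanned 1.28-fold and 1.25-fold, but a sum averages out the spread of single genes, so these values are not compared. No span is given for E18.5, where control replicate 3 had 1 or 2 counts of each of the 4 genes, under the floor of 3 counts.

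Cd4, a T cell surface gene, fell by 3.35 (SE 0.32, adjusted p = 7.97e-05) in the Figla P0 knockouts and fell by 3.75 (SE 0.63, adjusted p = 0.00473) in the Lhx8 knockouts by edgeR's quasi-likelihood test, the 1 of 3 T cell markers with enough counts to test in either set.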
